A study of Mus musculus with 9 samples.

Results

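Lyl1 and Tal1 are closely related basic helix-loop-helix transcription factors, and the 10 genes described here encode both of them and the proteins they work with: the bridge proteins Lmo2 and Ldb1, the DNA-binding partners Gata2, Runx1, Erg and Fli1, and the co-repressors Cbfa2t3 and Cbfa2t2. The members were taken by name, as all probe sets that the platform annotation of the Affymetrix mouse array assigns to these genes alone. This gave 23 of 45101 probe sets and 10 of 18193 genes, 4 genes with 1 probe set and 6 with several. All 10 genes passed the filter on dim probe sets and were among the 11951 genes tested. The question was whether progenitors that lack Lyl1 carry more transcript of Tal1 or of another member.

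The arrays hold RNA of mouse bone marrow cells sorted as Lineage-CD117+SCA-1+CD135+, a phenotype of multipotent progenitors that have begun to favour the lymphoid lineages. There were 3 wild-type (WT) arrays, 3 from E2A-/- mice and 3 from Lyl1-/- mice. E2A is the E protein encoded by Tcf3. The genotype is the only difference the labels give. The sources used here do not give strain, age, sex, the design of the deletions or the number of mice behind an array, and the labels name no agent or further allele for any group.

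As background, Lyl1 and Tal1 bind DNA only as dimers with an E protein such as E2A, at the E-box sequence CANNTG. The LIM-domain protein Lmo2 and its partner Ldb1 join such a dimer to a GATA factor, so that an E-box and a neighbouring GATA site can be held by 1 complex. Runx1, Erg and Fli1 are found at many of the same enhancers in blood stem and progenitor cells, and the ETO family proteins Cbfa2t3 and Cbfa2t2 bring histone deacetylases. Tal1 is needed for blood formation in the embryo. Lyl1 overlaps with it in function in adult stem cells, and the loss of Lyl1 is known to reduce early lymphoid cells.

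The arrays were not equal in ways that touch these genes. WT 1 and WT 3 were nearly copies of each other. The robust spread of their log2 difference over the brightest 20% of probe sets was 0.0827, against 0.193 to 0.375 in the other 35 pairs. They were averaged, so WT counts as 2 samples and each knockout as 3. The labels call the arrays biological replicates and do not say what was kept separate, so p-values measure the spread between these samples, which may be partly technical. The ratio of 3-prime to 5-prime actin signal, which is high when RNA is degraded, was 10.6 in WT 2 and 10.1 in E2A-/- 2 and 2.85 to 4.23 elsewhere. Of 12 listed genes of mature granulocytes and monocytes, 10 were on the array, and their summed intensity was 16165 in E2A-/- 2 and 18373 in E2A-/- 3, against 1213 in E2A-/- 1, 1338 to 1521 in WT and 1331 to 2837 in Lyl1-/-. Tcf3, the gene that encodes E2A, read 205, 164 and 195 on the WT arrays and 172, 193 and 121 on those labelled E2A-/-, an overlap, and its other probe sets lay near the array median in every group. Whether any of them lies in the deleted part is not stated, so Tcf3 does not check those labels, and every direction given for E2A-/- rests on them. The part of these arrays in the results below was not tested, and values with and without them are given. Xist, which is expressed from the inactive X chromosome of female cells, read 2362 on E2A-/- 2 and 2011 and 2001 on Lyl1-/- 1 and 2, against 79.7 to 104 on the other arrays, all WT arrays included, so that sex and genotype were not balanced. Of the sort gate, Kit encodes CD117 and Flt3 encodes CD135, and both lay above the array median on all 9 arrays. Ly6a, which encodes SCA-1, was looked up, but no probe set was assigned to it alone, so it could not be checked. In Lyl1-/- against WT the gate genes had differences as large as those of several members, Kit -0.40 without overlap (limma adjusted p = 0.571) and Flt3 -0.49 (limma adjusted p = 0.627), and their part in the members' values was not tested.

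Lyl1 transcript fell to near the array median in Lyl1-/- cells and was the only member past the threshold in any comparison. Its probe set 1419120_at read 1429, 1352 and 1443 on WT arrays 1 to 3 and 89.6, 79.2 and 92.0 on the Lyl1-/- arrays, whose median intensity over all probe sets was 77.9 to 79.3. On the log2 scale Lyl1 fell by 4.01 (SE 0.165, 95% interval -4.38 to -3.63, limma adjusted p = 5.52e-05), a 16.1-fold difference, with the smallest p of all tested genes. No Lyl1-/- array came near the other groups. This checks the Lyl1-/- labels. The lowest value of an array was 42.1 to 45.1. With all but 8 of it subtracted from every value of the array, the difference was -4.74. Whether this floor is a constant added to every value was not tested, so the fold change may be understated.

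In E2A-/- cells Lyl1 read 1222, 825 and 900. All 3 arrays lay below all WT arrays, but the difference of -0.53 (SE 0.165, limma adjusted p = 0.399) did not pass. The array nearest to WT was E2A-/- 1, the E2A-/- array whose granulocyte and monocyte sum was not above that of WT, at -0.19 from the WT mean. E2A-/- 2 and 3 stood at -0.76 and -0.63. In bulk samples, fewer cells that express a gene and less RNA per cell cannot be told apart.

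The promoter window of Lyl1, the 250 bases before its RefSeq start, is shown because Lyl1 is the deleted gene. It lies at chr8:84701207-84701456 on the plus strand of GRCm38.p6. Capitals mark each E-box (CANNTG) and each GATA on either strand, here a single E-box 235 to 230 bases before the start.
Lyl1: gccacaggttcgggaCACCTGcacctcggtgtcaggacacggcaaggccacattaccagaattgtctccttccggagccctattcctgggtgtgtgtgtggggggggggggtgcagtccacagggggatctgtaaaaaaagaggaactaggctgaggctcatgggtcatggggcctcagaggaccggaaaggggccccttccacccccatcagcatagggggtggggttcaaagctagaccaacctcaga
Of 32817 RefSeq windows of this length, 66.2% hold an E-box, so the match is common. The ETS-type sequence GGAAG, searched on both strands, occurs 2 times in the Lyl1 window and at least once in 64.1% of all windows. A match is a description and not a site.

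Tal1 transcript in Lyl1-/- cells differed from WT by less than the spread between samples. Its probe set 1449389_at read 472, 322 and 443 on WT arrays 1 to 3 and 407, 407 and 331 on the Lyl1-/- arrays. The group means were 389.5 ± 95.6 (SD, n = 2) and 382 ± 43.5 (SD, n = 3). All 3 Lyl1-/- values lay between the lowest and the highest WT value. The log2 difference was -0.01 (SE 0.168, limma adjusted p = 0.995). Its 95% interval ran from -0.40 to 0.37, that is from 0.759 to 1.29 times the WT level, so a rise of more than 1.29-fold lies outside it and smaller ones do not.

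The WT group set the precision of the Tal1 comparison. WT 2, an array with a high actin ratio, stood at -0.51 from the mean of WT 1 and 3 for Tal1. Against WT 1 and 3 alone, with WT 2 left out, the Lyl1-/- difference was -0.27 (95% interval -0.66 to 0.13). Against WT 2 alone it was 0.24 (-0.16 to 0.64). In both fits WT is 1 sample, assumed to vary like the knockout samples. Without Lyl1-/- 3, the lowest Lyl1-/- array, it was 0.08. Each of these intervals included 0, and under the 25 alternatives the limma adjusted p ran from 0.778 to 1.000.

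In E2A-/- cells Tal1 read 388, 415 and 460.4, within the WT range again, with a difference of 0.13 (SE 0.168, limma adjusted p = 0.924). The knockouts did not differ from each other in Tal1 beyond the spread, with Lyl1-/- minus E2A-/- at -0.14 (95% interval -0.49 to 0.20, limma adjusted p = 0.874). Tal1 had 1 probe set, so no second probe set could be set beside it. The tested genes whose pattern over the 8 samples was most like that of Tal1, among 11950, were Naa40, an N-terminal acetyltransferase (Pearson r = 0.951), Gnpda1, an enzyme of glucosamine metabolism (0.942), and Snx11, a sorting nexin (0.927). These are the top of a long ranking over few samples that share arrays, and serve as description only.

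**Figure D1:**
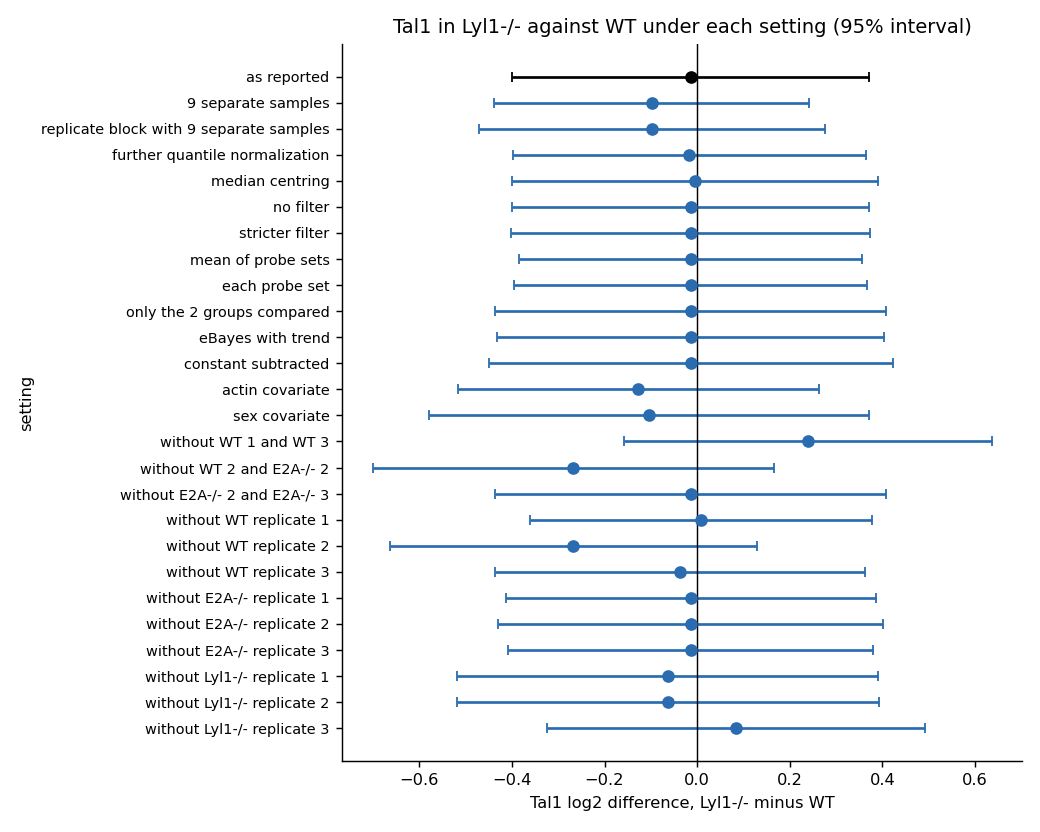
Log2 difference of Tal1 between Lyl1-/- and WT (x axis) as reported (black) and under each of the 25 alternatives (blue, y axis), with the 95% interval of each limma fit. The estimate runs from -0.27 without WT 2 to 0.24 without WT 1 and 3, and every interval includes 0.

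RefSeq gives Tal1 2 start windows, shown because Tal1 is the gene asked about. The first is chr4:115056176-115056425 and the second chr4:115057561-115057810, both on the plus strand of GRCm38.p6, with capitals as above.
Tal1 first start: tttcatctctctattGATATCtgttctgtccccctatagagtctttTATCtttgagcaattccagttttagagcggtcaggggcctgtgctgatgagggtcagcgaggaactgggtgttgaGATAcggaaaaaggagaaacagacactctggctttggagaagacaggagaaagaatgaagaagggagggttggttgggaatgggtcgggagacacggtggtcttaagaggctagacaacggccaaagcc
Tal1 second start: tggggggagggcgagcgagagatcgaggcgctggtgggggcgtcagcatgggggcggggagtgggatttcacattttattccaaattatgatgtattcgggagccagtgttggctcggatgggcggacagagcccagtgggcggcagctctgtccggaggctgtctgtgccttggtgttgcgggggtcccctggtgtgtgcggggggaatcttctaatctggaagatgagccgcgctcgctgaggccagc
The first window holds 0 E-boxes and 4 GATA matches counted on both strands, of which 2 overlap each other. GATA occurs in 53.6% of all windows. The second window holds 0 of either. An array value does not say from which start a transcript came.

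No difference of a bridge protein gene passed the test. Lmo2, the LIM-only protein that links the helix-loop-helix dimer to Ldb1, read 2311, 1740.3 and 2283 on the WT arrays and 1546, 1767 and 1989.5 on the Lyl1-/- arrays. The groups overlapped, with a difference of -0.19 (95% interval -0.56 to 0.19, limma adjusted p = 0.856). In E2A-/- cells Lmo2 read 2068, 1649.6 and 1899, a difference of -0.10 (-0.47 to 0.27, limma adjusted p = 0.951). All 3 Lyl1-/- arrays lay below WT 1 and 3, but only Lyl1-/- 1 lay below WT 2. Without WT 2 the Lmo2 difference was -0.39 in Lyl1-/- and -0.30 in E2A-/- cells, and against WT 2 alone it was 0.015 and 0.10.

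Ldb1, which dimerises and brings distant sites together, read 177, 115 and 174 on the WT arrays, 181, 137 and 139 in Lyl1-/- and 159, 128 and 141 in E2A-/- cells. Every knockout array but Lyl1-/- 1 lay between WT 2 and the other WT arrays. The difference was 0.09 in Lyl1-/- (95% interval -0.37 to 0.55, limma adjusted p = 0.969) and 0.00 in E2A-/- cells (-0.46 to 0.46, limma adjusted p = 1.000). The sign of these small values turned with the choice of arrays. WT 2 stood at -0.61 from WT 1 and 3 for Ldb1, the widest such gap among the members, and without WT 2 the differences were -0.21 and -0.31.

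**Figure D2:**
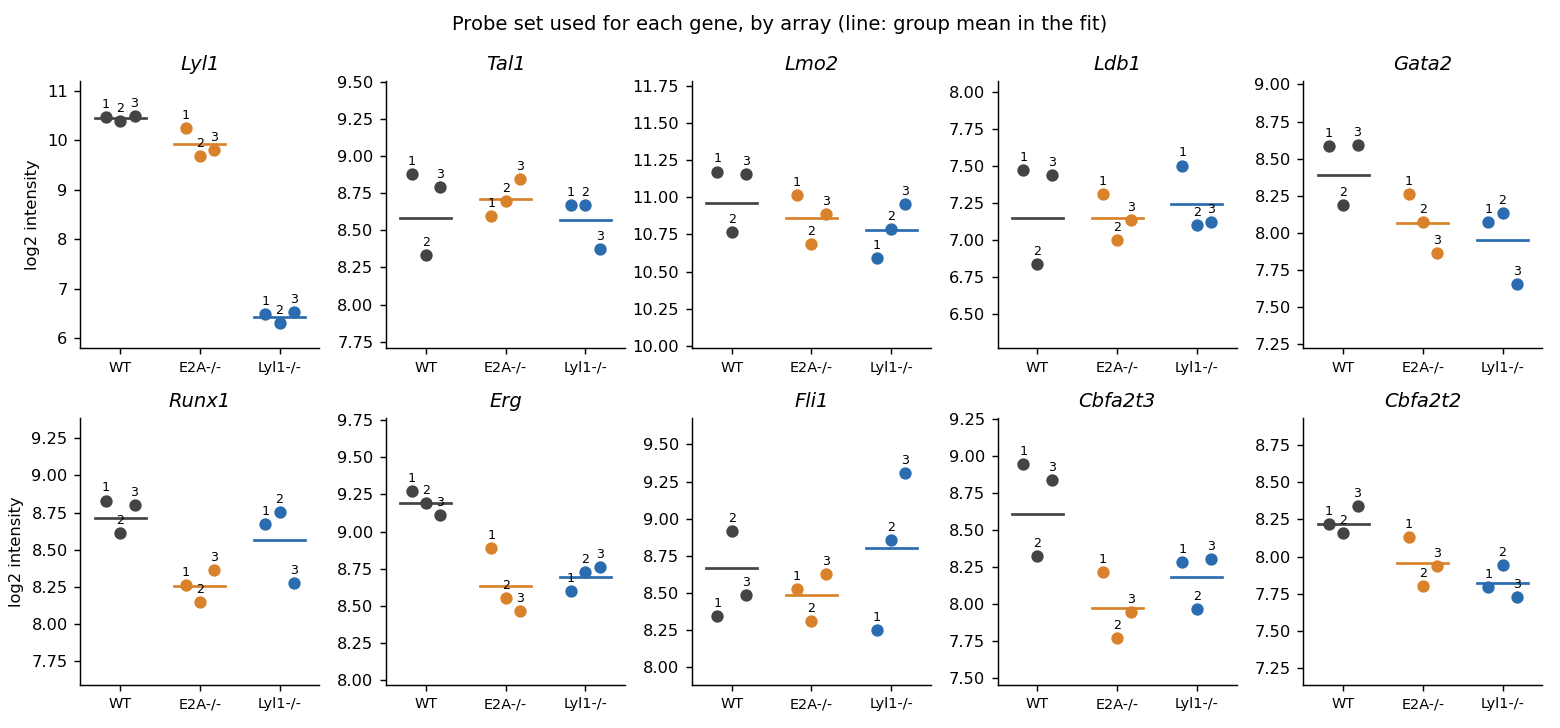
Log2 intensity (y axis) of the probe set used for each of the 10 genes on the 9 arrays by genotype (x axis), with replicate numbers over the points and lines at the group means of the fit; all panels but Lyl1 span the same 1.8 log2 units. Lyl1 is lost on the 3 Lyl1-/- arrays, Tal1 overlaps in all groups, and the Erg values of both knockouts lie below those of WT.

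Among the DNA-binding partners, Erg lay below WT in both knockouts on its brighter probe set, and neither difference passed over all genes. Erg is an ETS factor needed for the upkeep of blood stem cells. Its brighter probe set 1440244_at read 618, 584 and 554 in WT, 387, 423 and 434 in Lyl1-/- and 474, 376 and 353 in E2A-/- cells. All 6 knockout arrays lay below all WT arrays. The difference was -0.50 in Lyl1-/- (SE 0.135, limma adjusted p = 0.302) and -0.56 in E2A-/- cells (SE 0.135, limma adjusted p = 0.238).

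The second Erg probe set, 1425370_a_at, went the other way. It was dim, at 77.0, 82.3 and 79.8 in WT, close to the array median. In E2A-/- cells it read 108, 107 and 107, above all WT values, by 0.42 on the log2 scale (SE 0.121, limma adjusted p = 0.378 among all probe sets). In Lyl1-/- cells it read 105, 95.4 and 80.3, and overlapped with WT at 0.21. Over the 8 samples the Erg probe sets had a Pearson r of -0.75. With both averaged the Erg difference was -0.14 in Lyl1-/- and -0.07 in E2A-/- cells, so the direction of Erg rests on the brighter probe set.

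Runx1, the core-binding factor on which definitive blood stem cells depend, separated the E2A-/- arrays from WT on its brightest probe set. The probe set used, 1440878_at, read 456, 392 and 446 on the WT arrays, 307, 283 and 329 on the E2A-/- arrays and 409, 431 and 310.1 on the Lyl1-/- arrays. The E2A-/- arrays lay below all WT arrays, while 2 Lyl1-/- arrays lay within the WT range and Lyl1-/- 3 among the E2A-/- values. The differences were -0.46 in E2A-/- (SE 0.155, limma adjusted p = 0.441) and -0.15 in Lyl1-/- cells (SE 0.155, limma adjusted p = 0.897). Unlike Lyl1 and Erg, Runx1 was as low on E2A-/- 1, at -0.45 from the WT mean, as on E2A-/- 2 and 3, the arrays with high granulocyte sums, at -0.57 and -0.35.

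Of the 6 Runx1 probe sets, 3 had all E2A-/- arrays below WT, against 10.3% of all tested probe sets. None had all Lyl1-/- arrays below WT, against 11.7%. Of the 3, 1427650_a_at was dim and stood at only -0.14 in E2A-/- cells. The second brightest, 1422864_at, read 236, 273 and 238 on the WT arrays and 210.2, 205 and 214 on the E2A-/- arrays, but 300.0, 283 and 244 on the Lyl1-/- arrays. On this probe set Lyl1-/- exceeded E2A-/- on every array by 0.39 (SE 0.104, limma adjusted p = 0.436 over all probe sets), which did not pass. The other 3 Runx1 probe sets read 75.5 to 129 and differed from WT by at most 0.09 in size in either knockout.

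Gata2, the GATA factor of early progenitors and mast cells, lay below WT without overlap on 1 of its 2 probe sets in each knockout. The brighter, 1450333_a_at, read 384, 292 and 386 in WT, 269, 281 and 201 in Lyl1-/- and 306, 269 and 233 in E2A-/- cells. On it the Lyl1-/- arrays did not overlap with WT, with a difference of -0.44 (SE 0.190, limma adjusted p = 0.567). Without WT 2 it was -0.64, and against WT 2 alone -0.24. The other, 1428816_a_at, read 262, 304 and 265 in WT, 290.4, 263 and 223 in Lyl1-/- and 233, 232 and 224 in E2A-/- cells, and there the E2A-/- arrays were those that did not overlap, at -0.30 (SE 0.127, limma adjusted p = 0.601 over all probe sets). The differences with overlap were negative too. They were -0.32 in E2A-/- cells on 1450333_a_at and -0.14 in Lyl1-/- cells on 1428816_a_at. On both probe sets Lyl1-/- 3 was the lowest array.

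The Fli1 probe sets gave no common direction. Fli1 is an ETS factor related to Erg. On 1433512_at it read 325, 483 and 358 in WT, 305, 462 and 634 in Lyl1-/- and 369, 317 and 396 in E2A-/- cells. On 1422024_at it read 419, 322 and 409.5 in WT, 368, 429 and 332 in Lyl1-/- and 343, 455 and 353 in E2A-/- cells. WT 2 and Lyl1-/- 3 were high on the first and low on the second, and the Pearson r over the 8 samples was -0.51. The difference from WT on the first was 0.14 in Lyl1-/- (95% interval -0.51 to 0.79, limma adjusted p = 0.967) and -0.18 in E2A-/- cells (-0.83 to 0.47, limma adjusted p = 0.950), the widest intervals of any member.

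**Figure D3:**
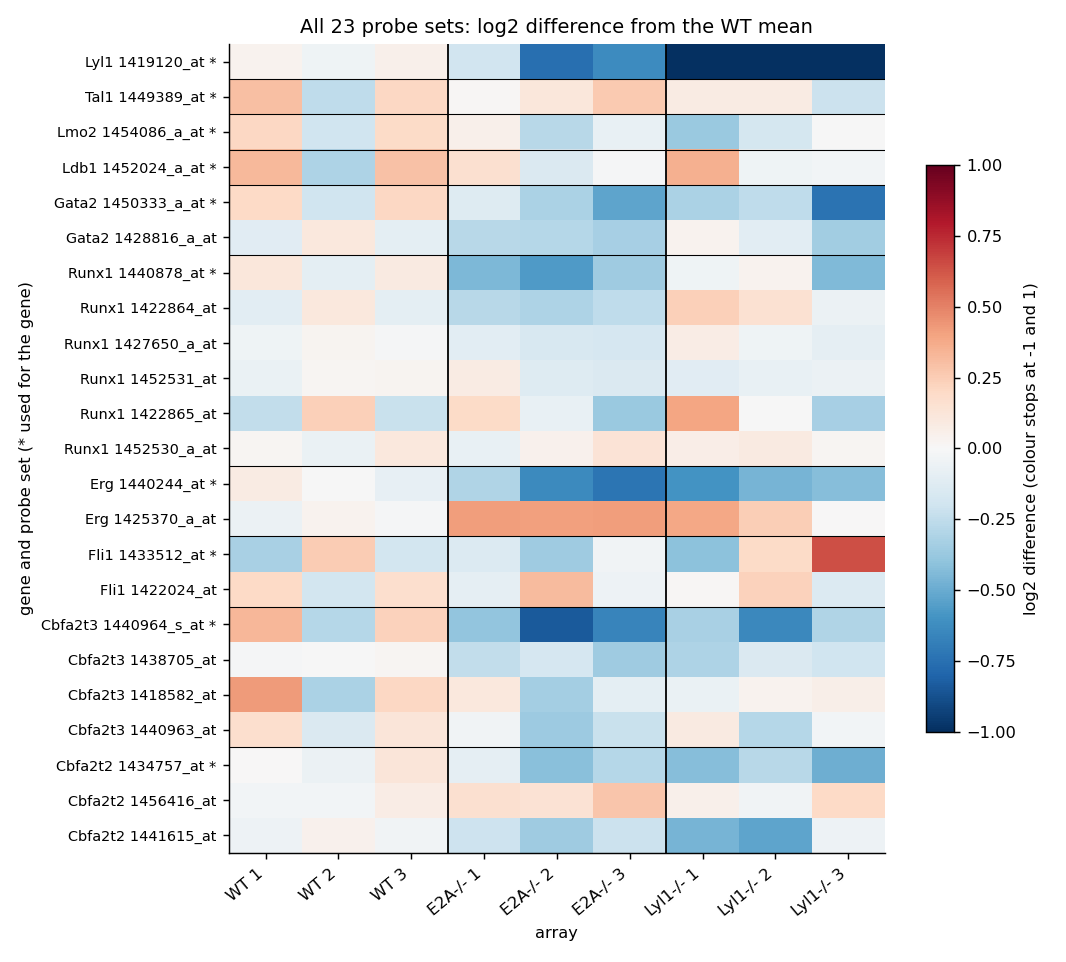
Log2 difference of each of the 23 probe sets (rows, grouped by gene) from the WT mean on each array (columns), blue below and red above WT; the colour stops at 1 in either direction. The Erg and Fli1 probe sets oppose each other, and 3 of the 6 Runx1 probe sets are blue on all E2A-/- arrays.

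The co-repressor genes stood below WT in both knockouts on their brightest probe sets. Cbfa2t3, also called Eto2, is a partner of Tal1 complexes that restrains their target genes. Its probe set 1440964_s_at read 492, 321 and 457 in WT, 297, 218 and 246 in E2A-/- and 312, 249.8 and 317 in Lyl1-/- cells. The knockouts did not overlap with WT, although 317 and 312 lay just under the 321 of WT 2. The differences were -0.63 in E2A-/- (SE 0.199, limma adjusted p = 0.399) and -0.42 in Lyl1-/- cells (SE 0.199, limma adjusted p = 0.606). WT 2 decided their size. The E2A-/- difference was -0.91 without it and -0.35 against it alone, and the Lyl1-/- difference -0.70 and -0.14.

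The 3 other Cbfa2t3 probe sets bear on this differently. On 1438705_at, which read 298 to 306 on all WT arrays, WT 2 did not stand apart. There E2A-/- cells read 254, 268 and 235 (difference -0.26, SE 0.0993, limma adjusted p = 0.571 over all probe sets) and Lyl1-/- cells 243, 273 and 262 (-0.22, SE 0.0993, limma adjusted p = 0.629), again without overlap. On 1418582_at and 1440963_at the groups overlapped, with differences from -0.20 to 0.01.

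Cbfa2t2, a co-repressor of the same ETO family, read 298, 286 and 325 in WT on 1434757_at. It read 222, 246 and 212 in Lyl1-/- and 281, 223 and 245 in E2A-/- cells. All 6 knockout arrays lay below WT, with differences of -0.40 in Lyl1-/- (SE 0.124, limma adjusted p = 0.393) and -0.26 in E2A-/- cells (SE 0.124, limma adjusted p = 0.632). The E2A-/- value rests on E2A-/- 2 and 3, since E2A-/- 1 stood at -0.09. Of the dimmer Cbfa2t2 probe sets, 1441615_at stood at -0.35 in Lyl1-/- cells, with an overlap in Lyl1-/- 3, and at -0.26 in E2A-/- cells without overlap, while 1456416_at stood at 0.19 in E2A-/- and 0.07 in Lyl1-/- cells.

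The upstream Cbfa2t3 window is shown because, among the 16 RefSeq windows of the 8 members matched, it alone holds an E-box followed by GATA at a gap of 7 to 11 bases, near the spacing known for Tal1, Lmo2 and GATA complexes. It lies at chr8:122699110-122699359 on the minus strand of GRCm38.p6 and was picked after this search.
Cbfa2t3: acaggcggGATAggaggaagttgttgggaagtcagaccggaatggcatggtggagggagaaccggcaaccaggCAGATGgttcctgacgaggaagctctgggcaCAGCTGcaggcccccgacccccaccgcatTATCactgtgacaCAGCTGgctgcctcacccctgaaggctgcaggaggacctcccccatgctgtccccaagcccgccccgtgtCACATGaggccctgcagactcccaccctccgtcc
The capitals mark 4 E-boxes and 2 GATA matches, and the spaced pair, read on the opposite strand, spans bases 117 to 99 before the start. The E-box with GATA at this gap, searched on both strands, occurs in 2.24% of all windows. No binding was measured here.

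**Figure D4:**
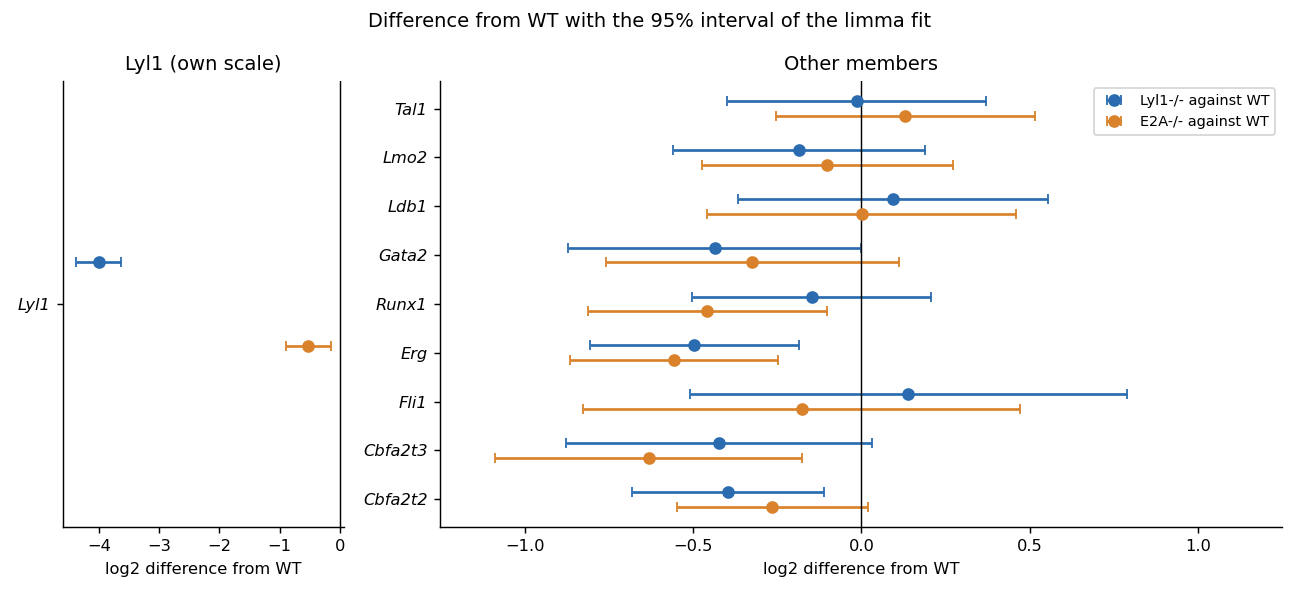
Log2 difference from WT (x axis) of Lyl1 (left, own scale) and of the other 9 members (right) in Lyl1-/- (blue) and E2A-/- cells (orange), with the 95% interval of the limma fit. Tal1, Lmo2, Ldb1 and Fli1 straddle 0 in both knockouts, and the Erg intervals lie below 0 in both before adjustment over all genes.

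Counted over the members, no gene but Lyl1 passed. On the probe set used for each gene, 0 of the 10 lay above WT without overlap in either knockout. Of all tested genes 9.91% did in Lyl1-/- and 7.46% in E2A-/- cells, so 0 of 10 is not far from that share. Dimmer probe sets of Erg and Cbfa2t2 lay above WT without overlap in E2A-/- cells. Of the 10 members 1 was called in Lyl1-/- against WT, against 0.192% of all tested genes, and this is the deleted gene. In E2A-/- against WT 0 were called by limma, against 0.226% of all tested genes, with 4 at an unadjusted p under 0.05 (Lyl1, Erg, Runx1 and Cbfa2t3), against 8.59% of all tested genes. Of the 9 members other than Lyl1, 3 had an unadjusted p under 0.05 in Lyl1-/- cells (Erg, Cbfa2t2 and Gata2), against 8.79% of all tested genes, and each of them was below WT. Between the knockouts Lyl1 alone was called (-3.48, SE 0.148, limma adjusted p = 7.02e-05), against 0.117% of all tested genes.

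The direction of the partners was mostly negative. Of the 9 members other than Lyl1, 7 had a negative difference in Lyl1-/- (median -0.19) and 7 in E2A-/- cells (median -0.26), where 51.4% and 53.7% of all tested genes did, with medians of -0.0048 and -0.01. Tal1 was among the negative ones in Lyl1-/- cells and among the positive ones in E2A-/- cells. Arrays of the groups did not overlap for 4 of these 9 in Lyl1-/- cells (Gata2, Erg, Cbfa2t3 and Cbfa2t2), each below WT, against 12.2% of all tested genes below WT. They did not overlap for 4 of 9 in E2A-/- cells (Runx1, Erg, Cbfa2t3 and Cbfa2t2), also below WT, against 10.4%. Both comparisons use the same WT samples, so their likeness is no repeat. The members were chosen with earlier results of these data known, so these counts are a description only. Between the knockouts themselves, on the probe set used for each gene, 0 of these 9 separated without overlap, against 5.73% lower and 6.46% higher of all tested genes.

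At the level of single probe sets, 6 of 23 lay below WT without overlap in Lyl1-/- and 10 of 23 in E2A-/- cells, against 11.7% and 10.3% of 20387 tested probe sets. None lay above WT in Lyl1-/- and 2 did in E2A-/- cells (the dimmer ones of Erg and Cbfa2t2), against 9.52% and 7.23%. Between the knockouts, 2 of the 23 were lower in Lyl1-/- than in E2A-/- cells without overlap, that of Lyl1 and the dimmer one of Erg. Another 2 were higher, 1422864_at and 1427650_a_at of Runx1. The share over all probe sets is not given here for this comparison. Probe sets of 1 gene share their transcript and are not independent. Tested over all probe sets, 1 of the 23 was called in Lyl1-/- against WT, that of Lyl1, and 0 in E2A-/- against WT by limma, against 0.216% and 0.221% of all tested probe sets. An unadjusted p under 0.05 was reached by 5 of the 23 in Lyl1-/- and 8 in E2A-/- cells, against 8.36% and 8.07% of all tested probe sets.

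The members also differed among themselves in how far single arrays moved them. WT 2 stood at -0.61 from the mean of WT 1 and 3 for Ldb1, at -0.56 for Cbfa2t3, at -0.51 for Tal1, at -0.40 for Lmo2 and Gata2, and at 0.50 for Fli1. For Lyl1 and Cbfa2t2 it stood at -0.09 and -0.12, and Erg was level. With E2A-/- 2 and 3 left out, 1 E2A-/- array remains, on which Erg stood at -0.30, Cbfa2t3 at -0.39 and Gata2 at -0.13 from the WT mean. Leaving out WT 2 and E2A-/- 2, the arrays with a high actin ratio, 8 of the 9 members other than Lyl1 were below WT in each knockout. Without WT 1 and 3 it was 6 of the 9 in each knockout. Without E2A-/- 2 and 3 it was 6 of the 9 in E2A-/- cells. The share of all tested genes below WT in these fits is not given here.

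Beyond the members, 66 genes of the wider complex and of its reported targets were looked up, of which 49 were tested. Of these 0 passed below and 1 above WT in Lyl1-/- cells by limma over all genes, where 7 below and 4 above WT had an unadjusted p under 0.05. In E2A-/- cells 0 passed by limma, and 7 below and 3 above WT had an unadjusted p under 0.05. In either direction, 8.79% of all tested genes in Lyl1-/- and 8.59% in E2A-/- cells reached that unadjusted p. After adjustment 0.192% and 0.226% of all tested genes passed. The median difference of the 49 was -0.14 in Lyl1-/- and -0.05 in E2A-/- cells.

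E proteins are the dimer partners of Lyl1 and Tal1, and Id proteins sequester them. Of 7 listed, 5 were tested and 0 passed. Tcf4, an E protein, read 728, 847 and 719 in WT and 461, 502 and 566 in Lyl1-/- cells, without overlap, a difference of -0.62 (SE 0.180, limma adjusted p = 0.339), against -0.10 in E2A-/- cells. Tcf3 stood at 0.14 in Lyl1-/- and -0.19 in E2A-/- cells, Id1 at 0.22 and -0.01, and Id2 at 0.09 and -0.35.

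Of 7 helix-loop-helix, GATA and FOG relatives, 3 were tested, since Tal2, Nhlh1, Nhlh2 and Msc did not pass the filter on dim probe sets. None of the 3 passed. Gata1, the erythroid GATA factor, stood at -0.10 in Lyl1-/- and 0.35 in E2A-/- cells, Zfpm1, its cofactor, at -0.09 and -0.36, and Gata3, the T lineage GATA factor, at -0.15 and -0.14. On the same arrays the 7 erythroid marker genes on the array, of 10 listed, summed to 650 to 760 in WT and 561 to 659 in Lyl1-/- cells. They summed to 904, 898 and 1733 on E2A-/- arrays 1 to 3. Their part in the Gata1 values was not tested.

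Of 8 relatives of the bridge proteins 6 were tested and 0 passed. The single-stranded DNA binding proteins Ssbp2, Ssbp3 and Ssbp4 stabilise Ldb1. Ssbp2 read 809, 839 and 836 in WT, 622, 639 and 580 in Lyl1-/- and 682, 563 and 461 in E2A-/- cells, without overlap with WT in either (-0.44 and -0.57, limma adjusted p = 0.445 and 0.300). Ssbp4 read 126, 113 and 128 in WT and 190, 167 and 163 in Lyl1-/- cells (0.53, SE 0.109, limma adjusted p = 0.188), and stood at 0.01 in E2A-/- cells. The LIM-only gene Lmo4 stood at 0.13 in Lyl1-/- and 0.32 in E2A-/- cells, and Rlim, which marks Ldb1 for degradation, at -0.31 and -0.22.

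Of 9 core-binding factor and ETS relatives 8 were tested and 0 passed. Elf1 read 492, 492 and 460 in WT and 269, 338 and 366 in Lyl1-/- cells (-0.59, SE 0.145, limma adjusted p = 0.242), against -0.22 in E2A-/- cells. Ets1 stood at -0.33 in Lyl1-/- and -0.66 in E2A-/- cells, Etv6 at -0.19 and -0.13, and Spi1, the myeloid and B cell ETS factor PU.1, at 0.47 and -0.23.

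The co-repressor machinery held the single gene of these lists that differed between the knockouts. Gfi1b, a repressor of the erythroid and megakaryocytic lineages that recruits Kdm1a, read 164, 183 and 174 in WT, 273, 240 and 222 in Lyl1-/- and 133, 106 and 89.2 in E2A-/- cells. Lyl1-/- exceeded E2A-/- by 1.18 (SE 0.151, limma adjusted p = 0.0371), with all Lyl1-/- arrays above and all E2A-/- arrays below WT. This call was lost under 13 of the 25 alternatives, and the difference ran from 0.87 to 1.55 over the 25. Against WT it was 0.47 in Lyl1-/- (limma adjusted p = 0.451) and -0.71 in E2A-/- cells (limma adjusted p = 0.231). Its relative Gfi1 stood at -0.59 in Lyl1-/- and 0.09 in E2A-/- cells, and the deacetylase genes Hdac1 at 0.46 and 0.32 and Hdac2 at -0.38 and -0.23. The erythroid marker sums given above also separate E2A-/- from Lyl1-/- arrays, in the opposite direction, and their part in the Gfi1b values was not tested. With sex, read from Xist, as a covariate the limma adjusted p of the Gfi1b difference was 0.135. Of the 9 tested of 12 listed, 0 passed against WT. Of the 4 co-activators, all tested, 0 passed: Kat2a stood at -0.19 and -0.23, Kat2b at -0.18 and -0.05, Crebbp at -0.26 and -0.09 and Ep300 at 0.00 and 0.10.

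Of 19 genes reported as targets of such complexes 14 were tested. In Lyl1-/- cells 13 of the 14 had a negative difference (median -0.16), where 51.4% of all tested genes did. Several of these were small, such as Cd34 at -0.01, Nfe2 at -0.05 and Hhex at -0.09. The list was chosen with earlier results of these data known, so the count of directions is a description only. The 1 gene past the threshold had a positive difference. Cdkn1a, the cell cycle inhibitor p21, rose by 1.02 (SE 0.146, limma adjusted p = 0.0477), from 119, 115 and 119 in WT to 272, 254 and 192, against 145, 150 and 151 in E2A-/- cells. This call was lost under 15 of the 25 alternatives, where the adjusted p reached 0.585 without WT 2 and E2A-/- 2 and 0.495 without WT 2. With sex as a covariate it was 0.208 by limma. The difference ran from 0.70 to 1.30 over the 25. Meis1, a homeobox gene of stem cells, read 959, 1005 and 945 in WT, 561, 576 and 522 in Lyl1-/- and 867, 748 and 611 in E2A-/- cells (-0.82 and -0.41, limma adjusted p = 0.113 and 0.466). Pdzk1ip1, the gene that neighbours Tal1, stood at -0.60 in Lyl1-/- and -1.13 in E2A-/- cells, and Myb at -0.29 and -0.33. In E2A-/- cells 8 of the 14 were below WT, where 53.7% of all tested genes were.

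**Figure D5:**
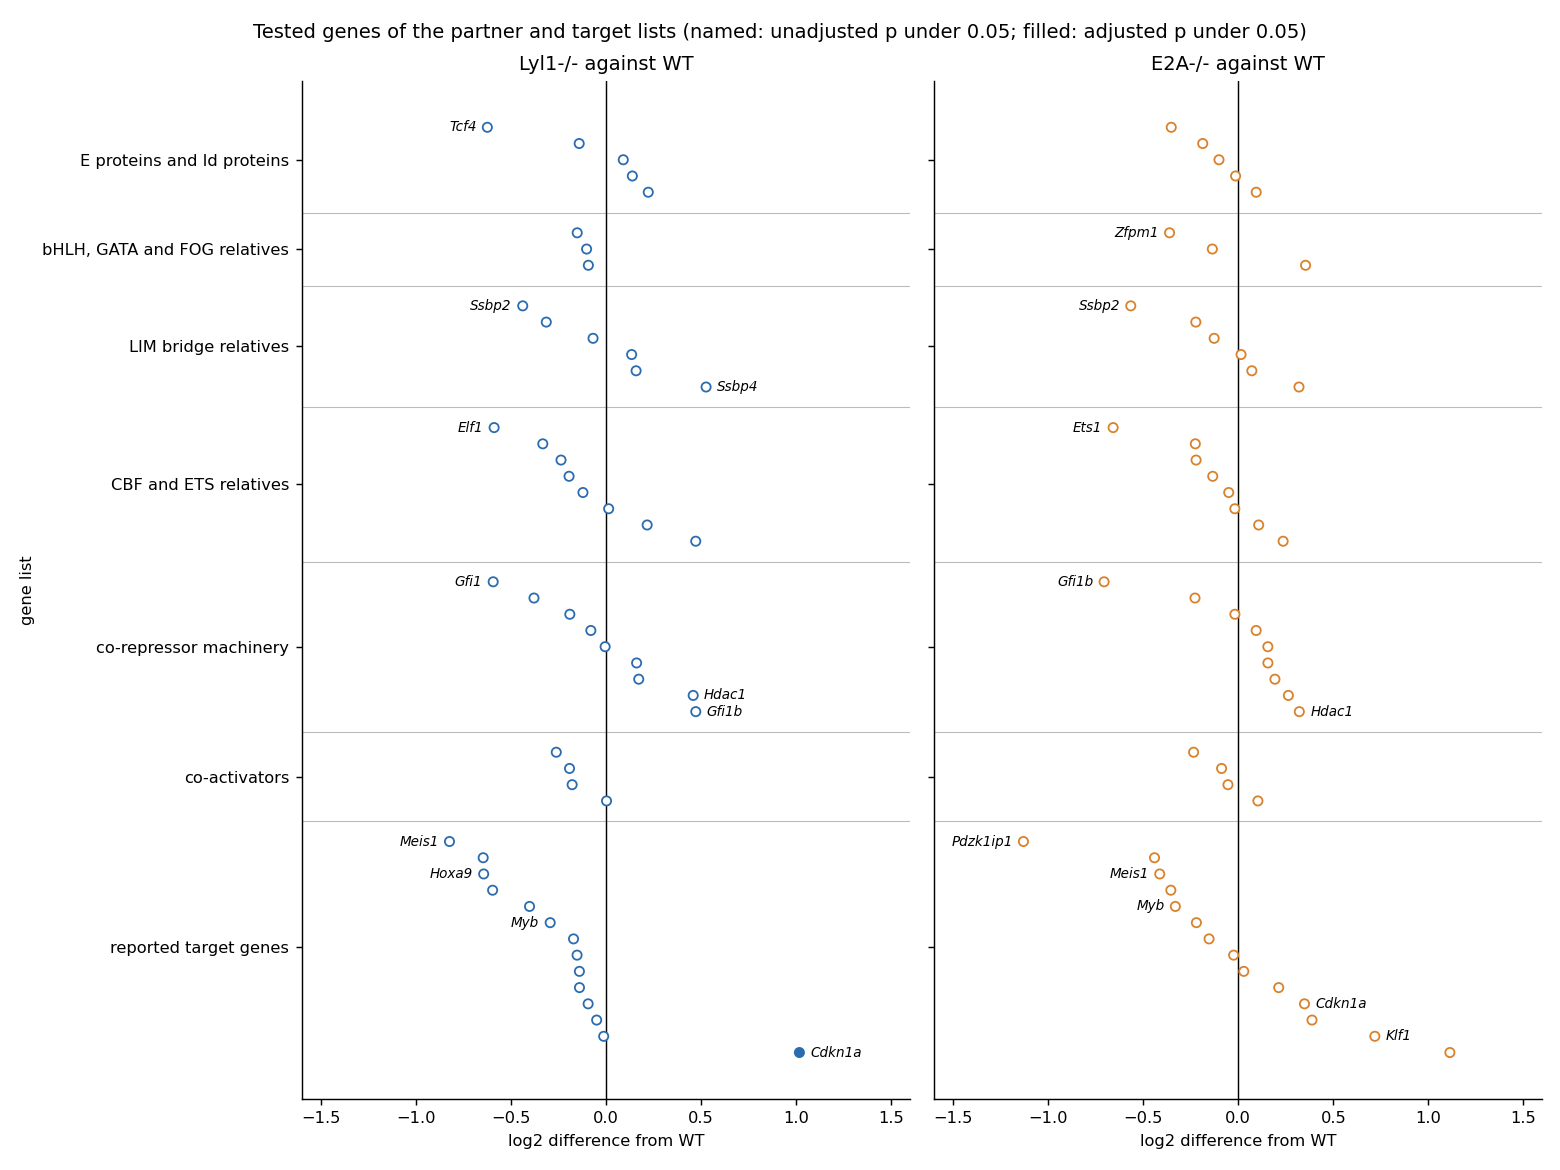
Log2 difference from WT (x axis) of each tested gene of the 7 partner and target lists (y axis) in Lyl1-/- (left) and E2A-/- cells (right); genes with an unadjusted limma p under 0.05 are named and filled points passed after adjustment over all genes. Cdkn1a in Lyl1-/- cells is the 1 filled point.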

How the data were processed

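Gene expression was measured on 9 Affymetrix arrays. The deposited values are 1 linear intensity per probe set and array. RMA and the oligo package are named in the submitters' processing notes without versions, and no source used here states the background correction. The arrays had nearly equal distributions, with medians of 77.9 to 79.3. The log2 of the intensities was taken without a pseudocount.

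Of 45101 probe sets, 64 controls were left out, and 34945 had 1 gene in GEO's platform annotation, 932 several and 9160 none. Through the RefSeq table (GRCm38.p6) 34741 were matched and 0 symbols changed. The probe set with the highest mean log2 intensity stood for its gene, and genes were tested where it exceeded the median of its array on 3 arrays or more. limma 3.58.1 in R 4.3.3 (lmFit, eBayes) was fitted to the 3 genotypes over 8 samples, with WT 1 and 3 averaged (5 residual degrees of freedom). Adjusted p-values are Benjamini-Hochberg over all tested genes of a comparison, or over all tested probe sets where stated, with a threshold of 0.05. Scripts were tested on simulated data. The number of arrays limits the precision.

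Members and gene lists were chosen with earlier results of these data known. Named genes were all members, up to 4 genes per list with the smallest p in the comparisons with WT or past the threshold, and the 3 genes most like Tal1. Promoter windows came from RefSeq for 8 members; none was held for Lmo2 and Fli1. Replicate numbers did not pair the arrays. Same-numbered arrays of different groups had correlations of their deviations from -0.145 to 0.240, and other pairs from -0.244 to 0.197. The 25 alternatives cover normalization, filter, probe sets, samples in the fit, variance model, background, actin, sex and left-out arrays.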

Additional observations from a re-analysis of the deposited data

Results flagged for a closer look

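Lyl1 differed between the knockouts when they were compared directly, at -3.48 on the log2 scale for Lyl1-/- minus E2A-/- (limma adjusted p = 7.02e-05), as the deletion of Lyl1 in one of them entails. Gfi1b differed between them by 1.18 (limma adjusted p = 0.0371), with 3 of 3 Lyl1-/- arrays above and 3 of 3 E2A-/- arrays below every WT array. Groups of 3 arrays were too small for a test of single outlying arrays.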

How the results depend on the processing

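Lyl1 was called in both comparisons with Lyl1-/- under all 25 alternatives, from -4.74 to -3.85 against WT. No other member was called in any of them, with 1 exception. With the replicate number as a block and 9 separate samples, Cbfa2t3 passed in E2A-/- against WT (-0.73, limma adjusted p = 0.0338), so 1 member was called there. The numbers share no known source, and the block changed no other call of a member. The count over all genes was 7 to 93 in Lyl1-/- against WT (23 as reported), 6 to 97 in E2A-/- against WT (27) and 3 to 23 between the knockouts (14). Of the recomputed member differences, 713 kept their sign and their side of the threshold, 1 newly passed it and 36 turned sign, and the cause was not tested.

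Tal1 in Lyl1-/- against WT was 0.24 without WT 1 and 3, and -0.27 to 0.084 when single arrays were left out. Without WT 1 and 3, Lmo2 was 0.015 in Lyl1-/- and 0.10 in E2A-/- against WT, and Fli1 -0.11 in Lyl1-/-. Without WT 2 and E2A-/- 2, Ldb1 was -0.21 in Lyl1-/- and -0.23 in E2A-/- against WT, Tal1 -0.11 and Fli1 0.16 in E2A-/-. With 9 separate samples, with or without the block, Ldb1 was -0.0097 in Lyl1-/- and -0.10 in E2A-/-. With the actin ratio as a covariate Ldb1 was -0.11 and -0.066 against WT and -0.039 between the knockouts. Between the knockouts, the mean of probe sets gave 0.025 for Gata2 and -0.072 for Erg, the sex covariate gave 0.0041 for Lmo2, and leaving out E2A-/- 2 and 3 gave -0.069 for Ldb1, -0.20 for Erg and -0.030 for Cbfa2t3, and 0.049 for Lmo2 in E2A-/- against WT.

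With single arrays left out, E2A-/- against WT ran from -0.12 to 0.19 for Tal1, -0.31 to 0.075 for Ldb1 and -0.25 to 0.073 for Fli1. Lyl1-/- against WT ran from -0.21 to 0.16 for Ldb1 and -0.11 to 0.42 for Fli1. Lyl1-/- against E2A-/- ran from -0.17 to 0.0083 for Lmo2, -0.038 to 0.17 for Ldb1, -0.21 to 0.039 for Gata2 and -0.027 to 0.19 for Erg. Signal close to the array median limits Ldb1 and the dimmer probe sets.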

Other observations

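Marker lists of other cell types were read beside the members, as the summed intensity of the listed genes on the array. Megakaryocyte genes (8 of 8 on the array) summed to 845 to 918 in WT, 838 to 1377 in E2A-/- and 936 to 1036 in Lyl1-/- cells. The high E2A-/- sum was that of E2A-/- 3, with E2A-/- 1 and 2 at 976 and 838. Mast cell and basophil genes (7 of 8), whose lineage expresses Gata2, summed to 650 to 682, 606 to 921 and 595 to 735. Here too the high E2A-/- sum was that of E2A-/- 3, with E2A-/- 1 and 2 at 729 and 606. Mature B and plasma cell genes (6 of 7) summed to 2285 to 3207, 1377 to 2270 and 1821 to 2669. Most of this sum was Ighm, at 1805, 2750 and 1872 in WT, 1777, 952 and 1774 in E2A-/- and 1270, 1322 and 2127 in Lyl1-/- cells. Cd79b went the other way in Lyl1-/- cells, at 319, 230 and 261 against 187, 173 and 194 in WT. Cd79a and Ms4a1 lay below the array median on every array. T and NK cell genes (6 of 8) summed to 476 to 502, 505 to 517 and 492 to 509. Of these, Cd3g and Ncr1 lay below the array median on every array, so part of the sum is dim signal. Macrophage genes (7 of 7) summed to 524 to 573, 568 to 648 and 584 to 729, and among them C1qb, C1qc and Mrc1 lay below the array median on every array. Endothelial and stromal genes (9 of 9), whose endothelial part expresses Erg, Fli1 and Tal1, summed to 712 to 1107, 658 to 698 and 706 to 718. The high WT sum was that of WT 2, where the collagen gene Col1a2 read 415, against 72.2 and 77.8 on WT 1 and 3. WT 1 and 3 summed to 712 and 736. The endothelial genes Cdh5 and Pecam1 lay below the array median on every array. The part of these levels in the members' values was not tested.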
